A study of Mus musculus with 6 samples.

Results

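The S100 proteins and annexins described here are 10 genes, S100a4, S100a6, S100a10, S100a11, S100a13, Anxa1, Anxa2, Anxa3, Anxa5 and Anxa8. They were taken as all probes that carry one of these symbols in the platform annotation, which gave 12 of the 25697 probes on the array. Anxa3 and Anxa8 had 2 probes each. The cells were GIF-14, a gastric epithelial line established from the stomachs of fetal Runx3-/- p53-/- mice, and both groups carry this genotype. The pre-EMT, epithelial fraction of the line was either left untreated (3 arrays) or exposed to 2.5 ng/ml TGF-β1 for 24 h (3 arrays), in what the methods call biological triplicates. Values are log2 signals of Illumina MouseRef-8 version 2 BeadChips, on which a probe's signal is the mean brightness of its beads. A probe was tested where it was above background (detection p under 0.05 against the negative control beads) on all 3 arrays of a group, which held for 11 of the 12 probes and for 11189 probes of the array.

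S100 proteins are small calcium-binding proteins built around a pair of EF-hand motifs, and most work as dimers that bind target proteins once calcium is bound. Annexins bind negatively charged phospholipids when calcium rises and so attach to membranes, where they take part in membrane repair, vesicle traffic and the organization of cortical actin. The families meet in defined complexes, of which S100a10 with annexin A2 and S100a11 with annexin A1 are the best known. In EMT the S100 gene most often used as a marker is S100a4, also known as fibroblast-specific protein.

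After TGF-β1, S100a13 fell 2.78-fold, both Anxa3 probes fell about 1.4-fold and S100a11 fell 1.20-fold, while Anxa5 rose 1.42-fold. Thus 4 of the 11 tested probes were lower and 1 was higher at an adjusted p under 0.05 from limma, beside 15.9% lower and 16.4% higher among all tested probes (32.3% in either direction). Of the 10 genes only S100a13 passed this threshold with a fall of at least 2-fold, as 3.45% of all tested probes did (1.93% passed with a rise as large). The probes of S100a6, S100a10, Anxa1, Anxa2 and Anxa8 did not pass. S100a4 was near background and was not tested. The median log2 difference of the 11 probes was -0.0082, beside 0.041 over all tested probes. At the RNA level in a bulk extract, fewer cells that use a gene and less RNA per cell cannot be told apart.

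**Figure D1:**
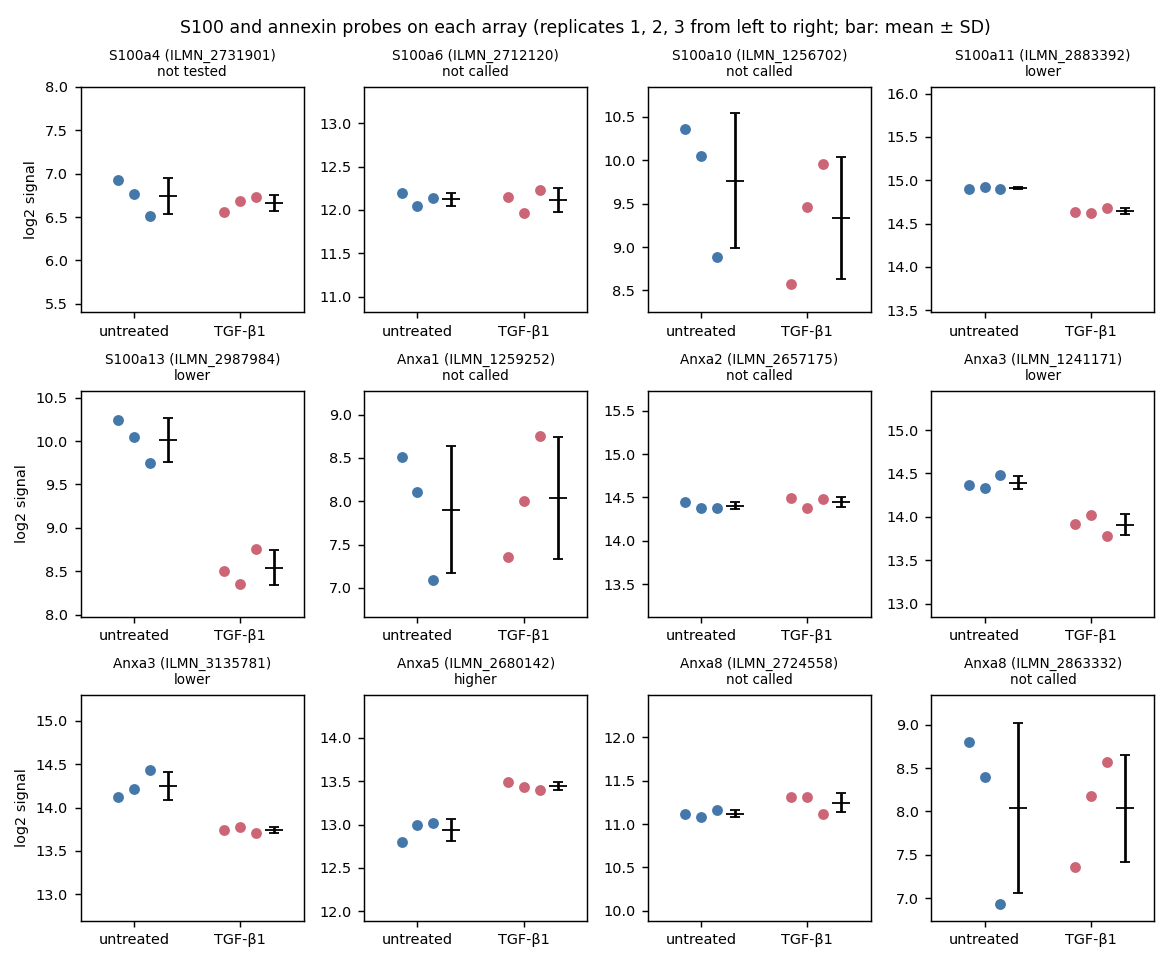
Log2 signal of the 12 probes on each of the 6 arrays, with untreated arrays in blue, TGF-β1 arrays in red, replicates 1 to 3 from left to right, and the mean ± SD of each group in black. Every panel spans the same number of log2 units. S100a13, both Anxa3 probes, S100a11 and Anxa5 have groups that do not overlap, like 45.9% of all tested probes. S100a10, Anxa1 and the dimmer Anxa8 probe scatter widely in both groups.

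Between 11381 and 11797 probes per array were above background, and the mean raw signal of an array ran from 406 to 519. The Runx3 probe was above background on 0 of 6 arrays. Of 13 epithelial marker genes with a probe, 11 were above background on at least 1 array, Cdh1, Krt8 and Krt18 on every array. Ovol1 and Grhl2 were so on none. Of the 10 tested probes, Krt19 (log2 difference -1.59), Ocln (-0.60), Cldn3 (-0.48) and Krt7 (-0.43) were lower in limma. Cldn4 (2.90) and Krt18 (0.47) were higher, and Cdh1, Krt8, Cldn7 and Tjp1 did not pass. Cdh1 (within-group SD 0.38) and Tjp1 (0.76) spread widely, both lowest on untreated replicate 3 and TGF-β1 replicate 1 of their groups. Tjp1 was at -0.62, with a 95% interval from -1.62 to 0.39. Among gastric epithelial markers, 5 of 10 tested probes (of 7 genes) were lower and 1 was higher, beside 15.9% and 16.4% of all tested probes. Gkn1, Gkn2 and Sox9 among them were at background throughout 1 group. The lower Gkn1 and Gkn2 entered the test through the untreated group only, and the higher Sox9 through the TGF-β1 group only, which favours these calls. Of 11 fibroblast marker genes, only Col1a1 and Acta2 were above background on any array, while Pdgfra, Dcn, Lum and Thy1 were so on none. The summed signal of the fibroblast list was 1289 to 1323 in untreated cells and 1638 to 1674 after TGF-β1. Much of this sum is background signal. From background in untreated cells, Col1a1 was at least 2.13-fold higher (adjusted p = 5.20e-05 from limma) and an Acta2 probe at least 2.92-fold higher (3.90e-06). Both entered the test through the TGF-β1 group only, which favours a higher call. The other tested Acta2 probes, at log2 differences of 0.040 and 0.24, did not pass. The part of the fibroblast list in the results was not tested. Ptprc and Lyz2 were above background on no array. Of the immune list only Cd14, on every array, and Cd3e, on 1 untreated array, were above background. Among known TGF-β responses, Ccn2 rose with a log2 difference of 2.13 (adjusted p = 6.86e-07 from limma) and Junb with one of 1.71. Tgfbi, from the same list, was above background on no array, and Ltbp2 was not tested.

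S100a13 had the largest change of the 10 genes. It encodes a copper-binding S100 protein that takes part in the release of Fgf1 and interleukin 1α from cells without a signal peptide. Untreated cells gave log2 signals of 10.25, 10.04 and 9.75, against 8.51, 8.35 and 8.76 with TGF-β1. The lowest untreated array lay well above the highest TGF-β1 array. The log2 difference was -1.47 (SE 0.15, adjusted p = 0.000158 from limma), which placed the probe at 160 of 11189 when counted from the most decreased. The decrease was retained with any 1 array left out, between -1.60 and -1.37.

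The start of S100a13 lies beside that of S100a1, another S100 gene, on chromosome 3. In the RefSeq annotation of GRCm38.p6 the start sites of S100a13 (plus strand) and S100a1 (minus strand) are 105 bases apart and point away from each other, so that the windows from 250 bases before to 50 bases after each start share 204 bases. These windows are shown because both genes fell. Capitals mark the shared bases, each read on its own gene's strand, with S100a13 at chr3:90514185-90514484 on the plus strand and S100a1 at chr3:90514281-90514580 on the minus strand.
S100a13: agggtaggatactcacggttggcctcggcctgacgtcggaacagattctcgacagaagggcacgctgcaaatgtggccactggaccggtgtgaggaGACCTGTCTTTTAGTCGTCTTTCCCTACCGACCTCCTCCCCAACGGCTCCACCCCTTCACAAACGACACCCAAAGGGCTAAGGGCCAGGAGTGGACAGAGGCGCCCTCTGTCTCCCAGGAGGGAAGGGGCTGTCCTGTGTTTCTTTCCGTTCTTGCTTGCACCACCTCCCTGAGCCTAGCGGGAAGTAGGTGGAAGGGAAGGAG
S100a1: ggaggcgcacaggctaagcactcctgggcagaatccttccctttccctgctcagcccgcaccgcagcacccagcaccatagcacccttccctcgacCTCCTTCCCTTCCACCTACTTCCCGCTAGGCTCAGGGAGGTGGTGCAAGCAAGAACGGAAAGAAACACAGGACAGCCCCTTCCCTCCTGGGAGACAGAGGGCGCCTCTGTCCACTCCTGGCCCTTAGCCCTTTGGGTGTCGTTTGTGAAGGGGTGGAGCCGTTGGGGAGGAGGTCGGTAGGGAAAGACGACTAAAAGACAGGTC
S100a1 is best known in heart muscle, where its protein regulates calcium handling. Its log2 signal was 11.97, 12.08 and 12.09 in untreated cells and 11.33, 11.11 and 11.13 after TGF-β1. The groups were separate, as in 45.9% of all tested probes, and the difference was -0.86 (SE 0.094, adjusted p = 0.000236 from limma). Neither window holds TGACTCA, the core of an AP-1 site, or CAGAC, a Smad-binding motif, on either strand.

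S100a11, whose protein binds annexin A1 and takes part in membrane repair and keratinocyte growth control, was among the brightest probes of the array, at place 10 to 21 of 25697. Its log2 signal was 14.90, 14.92 and 14.90 in untreated cells and 14.63, 14.62 and 14.68 after TGF-β1. The groups did not overlap, as in 45.9% of all tested probes. The difference was small, -0.26 (SE 0.076, adjusted p = 0.0300 from limma), and the within-group SD of 0.025 was undercut by only 0.322% of tested probes. Quantile normalization gives a probe the value of its rank, and the raw signals did overlap, at 31139, 35226 and 27442 in untreated cells and 22601, 24092 and 29652 after TGF-β1. Dropping any 1 untreated array ended the call (adjusted p = 0.0755, 0.115 and 0.0501 for arrays 1, 2 and 3), and so did dropping TGF-β1 array 1 (0.0860) or 2 (0.105). It also ended with neqc background correction (0.0646) and with scaling of each array to one mean signal (0.112).

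The window at the start of S100a11 is shown because it holds the AP-1 core at 2 places, in capitals, where it reads TGAGTCA because the core lies on the other strand. It lies at chr3:93520246-93520545 on the plus strand.
S100a11: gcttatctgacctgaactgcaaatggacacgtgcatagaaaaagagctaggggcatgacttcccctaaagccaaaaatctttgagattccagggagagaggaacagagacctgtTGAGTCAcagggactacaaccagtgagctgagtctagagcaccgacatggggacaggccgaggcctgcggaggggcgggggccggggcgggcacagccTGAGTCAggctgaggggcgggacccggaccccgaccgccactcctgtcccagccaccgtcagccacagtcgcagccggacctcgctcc
Of all 32851 windows of this length in the RefSeq table, 5.2% hold TGACTCA on either strand. Among the 29 windows of 22 S100 and annexin genes it was found in 3, those of S100a11, Anxa2 and Anxa10. A window was found for 8 of the 10 genes.

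S100a6, or calcyclin, a gene of proliferating and epithelial cells, was bright and even. Its log2 signal was 12.20, 12.04 and 12.13 in untreated cells and 12.15, 11.97 and 12.23 after TGF-β1. The groups overlapped throughout. The difference was -0.0082, with a 95% interval from -0.23 to 0.22 (adjusted p = 0.960 from limma), so a change as large as that of S100a13 lies outside the interval.

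S100a4 was close to background in both groups. In each group 2 of 3 arrays had the probe above background, and the log2 signal was 6.93, 6.77 and 6.52 in untreated cells and 6.56, 6.69 and 6.74 after TGF-β1. All values overlapped, and the difference of means was -0.076. With no group above background on every array it was not tested. So close to background, and with an SD of 0.21 in untreated cells, a small change of S100a4 would be hard to detect on these arrays.

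Annexin A3, found in many epithelia and in neutrophils, was measured by a pair of probes that both fell. On the brighter one, ILMN_1241171, the log2 signal was 14.37, 14.33 and 14.48 in untreated cells and 13.92, 14.02 and 13.78 after TGF-β1. On ILMN_3135781 it was 14.12, 14.21 and 14.43 in untreated cells and 13.74, 13.77 and 13.70 after TGF-β1. On neither probe did the groups overlap, which held for 45.9% of all tested probes. The differences were -0.49 (SE 0.094, adjusted p = 0.00511 from limma) and -0.52 (SE 0.099, adjusted p = 0.00500). The raw signals were also separate, from 19582 to 22847 against 12824 to 15049 on the first probe.

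Anxa5 was the only one of the 10 genes that rose. Annexin A5 binds phosphatidylserine with high affinity, forms a lattice on membranes and is widely used to stain dying cells. Its log2 signal was 12.80, 13 and 13.02 in untreated cells and 13.49, 13.44 and 13.40 after TGF-β1. Each TGF-β1 array lay above each untreated array, and 45.9% of all tested probes had groups that did not overlap. The difference was 0.51 (SE 0.092, adjusted p = 0.00368 from limma), between 0.43 and 0.55 with 1 array left out. An exact two-sided permutation test on 3 arrays against 3 cannot give a p under 0.1, which is the value for every probe whose groups do not overlap. The window of Anxa5 is shown for this rise, at chr3:36475838-36476137 on the minus strand, with CAGAC and its reverse complement in capitals.
Anxa5: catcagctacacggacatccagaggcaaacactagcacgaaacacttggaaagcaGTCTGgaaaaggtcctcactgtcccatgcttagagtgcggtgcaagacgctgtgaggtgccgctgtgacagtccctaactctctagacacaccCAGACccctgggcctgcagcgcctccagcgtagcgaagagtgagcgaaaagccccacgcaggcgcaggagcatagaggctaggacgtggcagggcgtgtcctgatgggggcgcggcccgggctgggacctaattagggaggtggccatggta
CAGAC or its complement occurs in 49.6% of all windows and in 17 of the 29 S100 and annexin windows.

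Anxa2, the partner of S100a10 in a complex that sits under the plasma membrane and binds plasminogen, stayed among the 31 brightest probes on every array. Its log2 signal was 14.45, 14.38 and 14.38 in untreated cells and 14.49, 14.38 and 14.48 after TGF-β1. Some values are identical because the probe held the same rank on those arrays. The difference was 0.045, with a 95% interval from -0.14 to 0.23 (adjusted p = 0.711 from limma).

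S100a10, Anxa1 and 1 of the Anxa8 probes spread far more between replicates than the rest. S100a10, the calcium-insensitive S100 protein also called p11, had a log2 signal of 10.36, 10.04 and 8.88 in untreated cells and 8.58, 9.46 and 9.96 after TGF-β1. Anxa1, the glucocorticoid-induced annexin that limits inflammation, had 8.51, 8.11 and 7.09 in untreated cells and 7.36, 8.004 and 8.76 after TGF-β1. Anxa8 on ILMN_2863332 had 8.80, 8.40 and 6.93 in untreated cells and 7.36, 8.18 and 8.57 after TGF-β1. In all of them untreated replicate 3 and TGF-β1 replicate 1 were the lowest of their groups, and the groups overlapped widely.

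The within-group SD was 0.74 for S100a10, 0.72 for Anxa1 and 0.82 for this Anxa8 probe, beside a median of 0.125 over all tested probes. Untreated replicate 3 and TGF-β1 replicate 1 were also the arrays with the lowest mean raw signal of their groups, 435 and 406. Of the 271 tested probes with a within-group SD over 0.5, these arrays were the lowest of their groups in 268. None of the 3 probes passed, with differences of -0.43 for S100a10 (95% interval -1.41 to 0.55, adjusted p = 0.487 from limma), 0.14 for Anxa1 (-0.81 to 1.09, adjusted p = 0.836) and -0.0047 for Anxa8 (-1.09 to 1.08, adjusted p = 0.995). With the mean raw signal of the array as a covariate, chosen after the data were seen, Anxa1 passed at 0.61 (SE 0.12, adjusted p = 0.00172), S100a10 was at 0.044 (adjusted p = 0.833) and Anxa8 at 0.50 (adjusted p = 0.0630). With the same covariate S100a13 was at -1.34 and passed, as did the other 4 calls among the members.

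**Figure D2:**
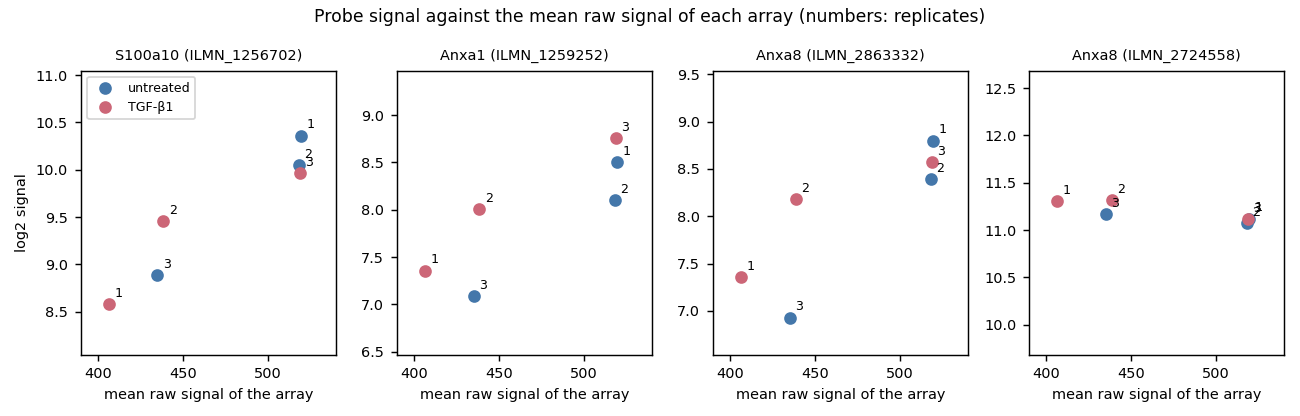
Log2 signal of S100a10, Anxa1 and the dimmer and brighter Anxa8 probes (vertical axes, equal spans) against the mean raw signal of the array, with untreated arrays in blue, TGF-β1 arrays in red and the replicate number beside each point. The first 3 probes are lowest in each group on the array with the lowest mean signal, whereas the brighter Anxa8 probe stays between 11.08 and 11.32. TGF-β1 array 2, at a mean signal of 439, lies above untreated array 3, at 435, on all of these 3 probes.

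The other Anxa8 probe, ILMN_2724558, was even. Annexin A8 is an annexin of stratified and glandular epithelia. The log2 signal on this probe was 11.12, 11.08 and 11.17 in untreated cells and 11.31, 11.32 and 11.12 after TGF-β1. The groups overlapped through TGF-β1 replicate 3. The difference was 0.13, with a 95% interval from -0.077 to 0.33 (adjusted p = 0.318 from limma), and it held its sign under every alternative run.

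The other members of both families moved mainly downward. Of 10 further S100 genes on the array, 5 were tested and all 5 were lower, where 15.9% of all tested probes were. S100a1, given above, and S100a16 (-0.74, SE 0.10, adjusted p = 0.00100 from limma) changed most among them. S100a16 had log2 signals of 8.95, 8.97 and 9.27 in untreated cells and 8.31, 8.31 and 8.35 after TGF-β1. S100a7a, a mouse psoriasin relative of inflamed skin, changed by -0.54 (adjusted p = 0.00441) and was above background on 1 of 3 TGF-β1 arrays. S100a14, an epithelial S100 gene, changed by -0.40 (adjusted p = 0.0156). S100a3, known from hair cuticle, changed by -0.38 (adjusted p = 0.0169). Dropping untreated array 1 (adjusted p = 0.0532) or 2 (0.0675) ended the call of S100a14, and dropping untreated array 1 (0.0635) or TGF-β1 array 1 (0.0613) ended that of S100a3. The methods' t-test after adjustment also ended the call of S100a14 (0.0518). S100a5, S100a8, S100a9, S100b and S100g were above background on no array. S100a8 and S100a9 are the abundant S100 genes of neutrophils.

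With the 10 genes included, 7 of 9 tested S100 probes were lower and 0 were higher in limma, beside 15.9% and 16.4% of all tested probes. S100a6 and S100a10 were the others. The median log2 difference was -0.43. S100a13 and S100a1, the divergent neighbours, had the most negative differences of the 9. The S100 genes S100a1, S100a13, S100a14, S100a16 and S100a3 follow each other on chromosome 3 with no protein-coding gene between them in the RefSeq order, and all of them were lower. S100a6, further along the same cluster, did not pass, and its next gene S100a7a was lower. S100a11 and S100a10 lie next to each other, 54 protein-coding genes away from the rest.

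**Figure D3:**
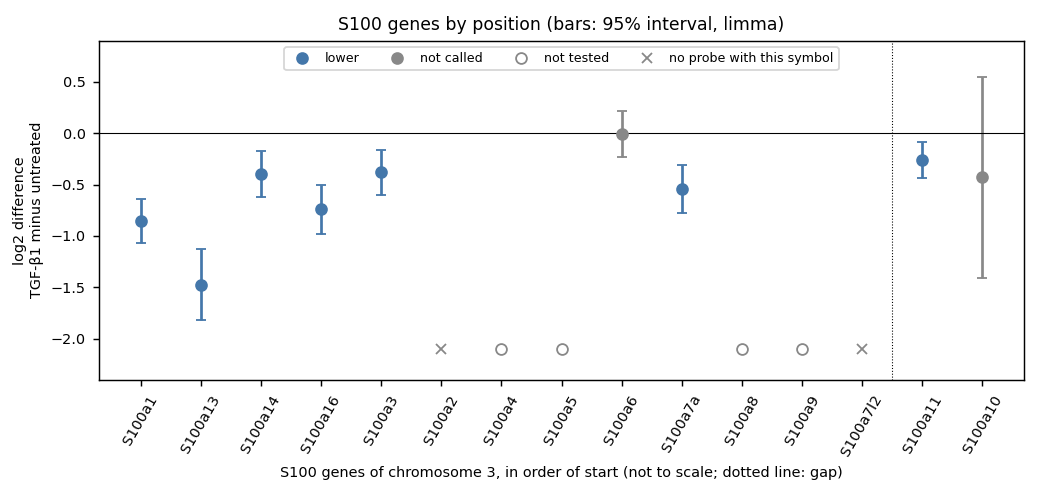
Log2 difference (TGF-β1 minus untreated) of the S100 genes of chromosome 3 in their RefSeq order, with 95% intervals from limma. Blue points are lower, grey points did not pass, open circles at the foot were not tested and crosses had no probe with this symbol; the run from S100a1 to S100a3 lies wholly below 0.

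**Figure D4:**
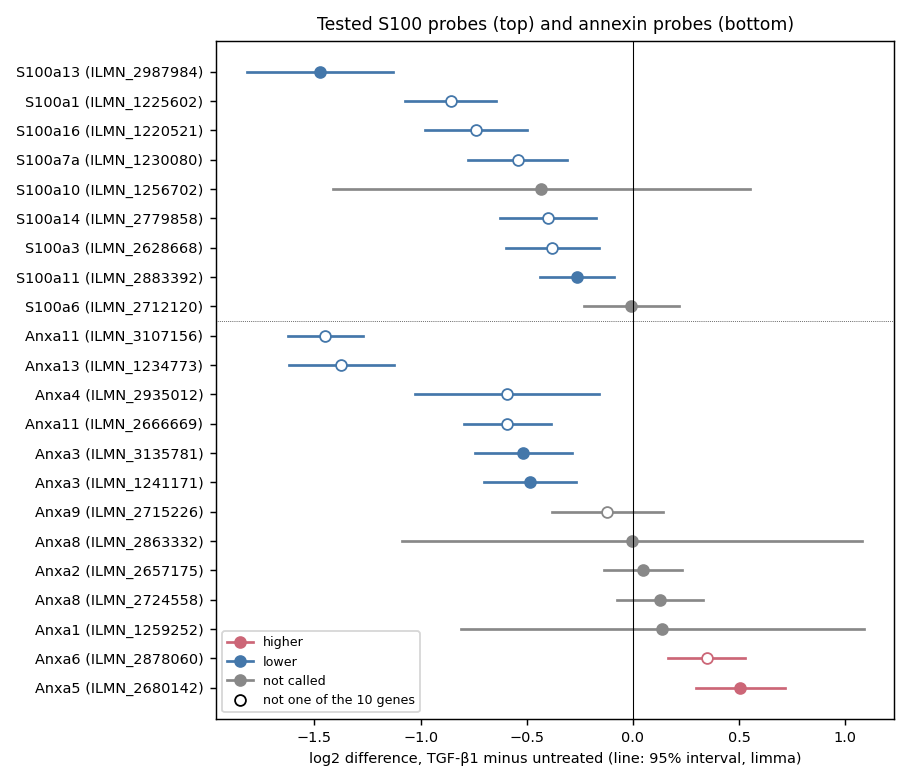
Log2 difference between TGF-β1 and untreated arrays with its 95% interval for the 22 tested S100 and annexin probes, filled for the 10 genes and open for the rest of the families. S100a13, Anxa11 and Anxa13 lie furthest to the left, and Anxa5 and Anxa6 are the only probes called higher.

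Among the other annexins, 6 probes of 5 genes were tested, of which 4 were lower and 1 was higher, against a background of 15.9% lower and 16.4% higher. Anxa11, an annexin that links RNA granules to lysosomes, was 11.28, 11.28 and 11.28 in untreated cells and 9.88, 9.80 and 9.81 after TGF-β1 on its brighter probe. The difference was -1.45 (SE 0.077, adjusted p = 3.99e-06 from limma), close in size to that of S100a13. Its dimmer probe was above background on all untreated and no TGF-β1 array and was at least 1.39-fold lower (adjusted p = 0.00147). Anxa13, the annexin of gut epithelium, was 10.96, 10.81 and 10.62 in untreated cells and 9.32, 9.45 and 9.50 after TGF-β1, a difference of -1.37 (SE 0.11, adjusted p = 3.37e-05).

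Anxa4, an annexin of secretory epithelia, changed by -0.59 (SE 0.19, adjusted p = 0.0427 from limma), and its groups were separated by little. Untreated replicate 3 and TGF-β1 replicate 1 were low here too. Its call ended when untreated array 1 (0.134) or 2 (0.130) or TGF-β1 array 1 (0.126), 2 (0.0780) or 3 (0.0634) was dropped. It also ended with neqc background correction (0.0631), no detection filter (0.0536), a trended robust prior (0.0564) and the methods' t-test (0.173 after adjustment), and 8 of 19 alternatives kept it. Anxa6, the large annexin with doubled repeats, rose from 11.98, 11.95 and 11.97 to 12.31, 12.38 and 12.26, a difference of 0.35 (SE 0.079, adjusted p = 0.0106) whose call ended when TGF-β1 array 2 was dropped (0.0502). Anxa9 was at -0.12 (adjusted p = 0.460). Anxa7 and Anxa10 were above background on no array. Over both families, 13 of 22 tested probes were lower and 2 were higher, where 15.9% and 16.4% of all tested probes were. Among them S100a7a and the dimmer Anxa11 probe entered the test through the untreated group only.

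Proteins that S100 proteins or annexins bind, act on or signal through were taken from a list. Of 10 tested probes on it, 6 were lower and 0 were higher from limma, beside 15.9% and 16.4% over the array's tested probes. Both Bsg probes, the dimmer Fgf1 probe and the interleukin 1α probe entered the test through the untreated group only, which favours a lower call. Fgf1, a growth factor released with the help of S100a13, fell most of those on the list. On its brighter probe the log2 signal was 9.51, 9.63 and 9.71 in untreated cells and 7.36, 7.46 and 7.31 after TGF-β1, a difference of -2.24 (SE 0.090, adjusted p = 1.01e-06). Its dimmer probe was above background on no TGF-β1 array and was at least 1.65-fold lower (adjusted p = 0.000850). Interleukin 1α (Il1a), the other protein released with S100a13, changed by -0.36 (adjusted p = 0.0293), a call that ended when untreated array 2 (0.0795) or 3 (0.0599) or TGF-β1 array 1 (0.0636) or 3 (0.0874) was dropped, and with scaling (0.0501). The methods' t-test after adjustment ended the Il1a call too (0.0797).

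Tlr4, a receptor for S100a8 and S100a9, changed by -0.74 (adjusted p = 0.000313 from limma) on the probe that was above background. Bsg, also called basigin and a receptor for S100a9, was above background on no TGF-β1 array and was at least 1.11-fold lower on 1 probe (adjusted p = 0.00650) and at least 1.10-fold lower on the other (0.00711). Ahnak, a giant scaffold that binds S100a10 and annexin A2, was at -0.36 on its brighter probe (adjusted p = 0.0526 from limma). This probe passed when TGF-β1 array 3 was dropped (0.0203) and with scaling (0.0480). It also passed with the brightest probe of each gene (0.0468), a trended robust prior (0.0241) and the mean raw signal as covariate (0.0335). Myh9, the nonmuscle myosin that S100a4 binds, was at 0.28 (adjusted p = 0.162), and passed at 0.38 with the mean raw signal as covariate (0.0149).

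Of 3 tested probes for plasminogen activation, which S100a10 with annexin A2 promotes, 1 was lower and 0 were higher. Plgrkt, a plasminogen receptor, changed by -1.15 (SE 0.087, adjusted p = 2.72e-05 from limma). Plau was at -0.17 (adjusted p = 0.185) and its receptor Plaur at 0.014 (adjusted p = 0.938). Of 11 tested probes for membrane repair, 2 were higher and 1 was lower. Among all tested probes 32.3% passed in either direction. Tgm2, a transglutaminase that cross-links annexins and other proteins, changed by 1.32 (SE 0.082, adjusted p = 9.37e-06).

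Of the 3 tested probes of the calpain gene Capn2, 1 was higher by 0.36 (adjusted p = 0.0499 from limma), and dropping untreated array 1 (0.0668), 2 (0.108) or 3 (0.102) or TGF-β1 array 2 (0.148) or 3 (0.138) ended the call, as did neqc (0.0753), scaling (0.0801), no detection filter (0.0646), the mean of the gene's probes (0.0964) and the methods' t-test (0.138 after adjustment). Of 18 alternatives 5 kept it. Another Capn2 probe, at 0.32, passed when TGF-β1 array 1 was dropped (0.0269) and, at 0.40, with the mean raw signal as covariate (0.0107). The remaining Capn2 probe, at 0.21, passed with this covariate at 0.35 (0.00696). Pdcd6ip, an adaptor that brings the ESCRT machinery to damaged membranes, changed by -0.29 (adjusted p = 0.0334), and dropping untreated array 1 (0.113), 2 (0.0782) or 3 (0.0519) or TGF-β1 array 1 (0.109) or 3 (0.0827) ended its call. Cav1, the main caveolin, was at 0.40 (adjusted p = 0.327), between 0.087 and 0.62 with 1 array dropped, and passed at 0.71 (adjusted p = 0.000457) with the mean raw signal as covariate. Capns1 was at 0.28 (adjusted p = 0.102). Of 4 tested phospholipase A2 probes, whose enzyme activity annexins were first described as inhibiting, only that of Pla2g12a passed (32.3% of all tested probes did), upward by 1.35 (SE 0.12, adjusted p = 5.90e-05). Pla2g6 was at -0.27 (adjusted p = 0.0759) and passed when untreated array 3 was dropped (0.0194), and Pla2g15 was at 0.19 (adjusted p = 0.149).

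The nearest genes with a tested probe, which can lie several genes away, did not follow one direction. On the sides of Anxa5, which rose, Acad9 was at 0.17 and 0.21 on its probes (2 genes between) and Bbs7 at -0.12 (4 between), and none of them passed. Near Anxa3, which fell, Prkg2 rose by 0.52 (9 genes between, adjusted p = 0.00334 from limma) and Mrpl1 was at 0.34 (1 between, adjusted p = 0.131). Near Anxa2, Bnip2 rose by 1.02 (1 gene between, adjusted p = 4.35e-05), while the adjacent Ice2 was at 0.064 (adjusted p = 0.750).

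Near Anxa1, the adjacent Rorb fell by 0.40 (adjusted p = 0.0154 from limma) and Aldh1a7 by 1.11 (1 gene between, adjusted p = 0.00246). Near Anxa8, Gdf10 fell by 1.75 (7 genes between, adjusted p = 7.75e-06), and Glud1, with 4 between, was at -0.16 (adjusted p = 0.268) and 0.14 (adjusted p = 0.445) on its probes. On the far side of S100a11, which fell, Lce1f rose by 1.65 (24 genes between, adjusted p = 0.000103). On the far side of S100a10, Tdrkh was at -0.20 (13 between, adjusted p = 0.135).

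The probes whose values over the 6 arrays were most like those of S100a13 were of Ezr, Lbr and Lrrc75a, each with a Pearson r of 0.999. Their log2 differences were -0.79, -0.77 and -0.86. In all, 26 other tested probes had an r over 0.99 with S100a13, over arrays that fall into only 2 groups.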

How the data were processed

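RNA from 3 untreated and 3 TGF-β1-treated cultures was hybridized to BeadChips and read by the authors with GenomeStudio (its expression module 1.9). Their deposited raw table holds intensities from which no background was taken (lowest 48.6). The deposited detection values are p-values against the negative control beads. The authors' normalized values are quantile-normalized linear intensities and were used as an alternative.

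Here the raw intensities were quantile-normalized and taken to log2, and the groups were compared in limma 3.58.1 (lmFit and eBayes, R 4.3.3), with Benjamini-Hochberg adjustment over 11189 tested probes and a threshold of 0.05. The fit was tested on simulated data. SAM, which the methods name, was not run. The platform annotation gave 1 symbol to 23978 probes, several to 0 and none to 1719. All 6 arrays entered the fit except where 1 was left out. The number of arrays limits the precision. Where all arrays of a group left a probe at background, the fold is a lower bound, with that group's signals raised to the lowest detected signal of each array.

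The 10 genes and the lists were chosen with earlier results of these data known. Named were every probe of the 10 genes, every other tested S100 or annexin gene, and from each further list up to 4 passing genes, by size of change, and up to 2 that failed. The nearest genes with a tested probe and the 3 probes most like the leading one were also named, and marker and response genes serve as checks. Genomic windows come from RefSeq (GRCm38.p6).

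The alternatives were neqc, scaling to one mean signal, the authors' values, other detection filters, the brightest or the mean probe of a gene, a replicate block, a trended robust prior, the methods' t-test, a 1.5-fold minimum and leaving out each array. The array's mean signal as a covariate was added after the data were seen.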

Additional observations from a re-analysis of the deposited data

How the results depend on the processing

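The calls of S100a13, both Anxa3 probes and Anxa5 were kept under every alternative run except that, when a change of at least 1.5-fold was required in addition, only S100a13 was left, so that 1 member probe was called, the values of the others being -0.49 and -0.52 for Anxa3 and 0.51 for Anxa5. The same requirement left 1489 of all tested probes, 6 of the other S100 and annexin probes and 6 of the partner, plasminogen, repair and phospholipase probes, against 3611, 10 and 11. S100a11, at -0.26, also lost its call with it, as well as with neqc (-0.26), with scaling (-0.19) and with the replicate block (-0.26, adjusted p = 0.127 from limma). Without 1 array in turn, S100a11 lay between -0.29 and -0.24, S100a10 between -0.87 (without untreated replicate 3) and -0.053 (without TGF-β1 replicate 1), S100a6 between -0.066 and 0.066, Anxa1 between -0.27 and 0.48 and the dimmer Anxa8 probe between -0.56 and 0.37, so that the last 3 changed sign without passing.

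The dimmer Anxa8 probe was at 0.078 with neqc and 0.061 as the mean of both Anxa8 probes. When the arrays' mean raw signals entered as covariate it was at 0.50, S100a6 at 0.017, S100a10 at 0.044 and Anxa1, which then passed, at 0.61. The partner, plasminogen, repair and phospholipase count was 18 with this covariate, 7 with the stricter detection filter, which tests fewer probes, and 7 with the replicate block. Of genes that did not pass, Plaur turned to -0.044 with scaling, -0.053 with the covariate and between -0.051 and 0.095 without 1 array, and the dimmer Ahnak probe to -0.15 as the mean of its gene's probes, -0.013 with the covariate and between -0.017 and 0.15 without 1 array. The cause of the other changes was not tested.

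Deviations from the group means correlated with r of -0.67, 0.073 and -0.78 between arrays of the same replicate number. This gave no sign that the numbers pair the arrays. It cannot exclude a pairing, because untreated replicate 3 and TGF-β1 replicate 1, which differ in number, shared low values on many probes. The block called 2097 of all tested probes and 4 of the 11 member probes. It also ended the calls of S100a3 (adjusted p = 0.0838 from limma), Anxa4 (0.115), Anxa6 (0.0675), Il1a (0.111), 1 Bsg probe (0.0518), Capn2 (0.153) and Pdcd6ip (0.126). The methods' t-test called 4295 probes at its unadjusted threshold and 2653 after Benjamini-Hochberg adjustment. Without 1 array in turn, 4 or 5 member probes and 7 to 10 of the other S100 and annexin probes were called. A probe near background, as that of S100a4, limits what a change could show.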
